A study of Mus musculus with 8 samples.

Results

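The genes described here encode the machinery that brings secreted proteins into the endoplasmic reticulum (ER), folds them there and moves them to and from the Golgi apparatus in COPII and COPI vesicles. The 54 genes were picked for their known functions, at a time when earlier results of these data were known, and fall into 8 roles: the Sec61 translocon (5 genes), the TRAP complex (4), the signal peptidase (3), the COPII coat (10), the COPI coat with its Arf GTPases (11), the KDEL receptors (3), cargo receptors and proteins of the ER-Golgi intermediate compartment, ERGIC (11), and ER folding enzymes and chaperones (7). All 54 were found among the 43629 genes counted, and all 54 were among the 17129 genes with enough counts to be tested.

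Lower first molars of mouse embryos at E18.5 were sequenced by RNA-seq, with 4 control and 4 mutant embryos. The mutants carry K14:cre and Jagged1 fl/fl, so that the Notch ligand Jagged1 is deleted where the keratin 14 promoter drives Cre, in the epithelium, while the mesenchyme keeps the gene. The controls are Jagged1 fl/fl littermates without the Cre, which the study calls WT, and the left and right molars of each embryo were pooled into a library. Between 17327224 and 28613574 counts fell on genes in the control embryos J3, J5, J6 and J7, and between 24692128 and 29792467 in the mutant embryos K14J26, K14J28, K14J29 and K14J30. Values of single embryos are listed in this order throughout, in CPM, a count scaled to the size of the library and its TMM factor. At these depths 3 counts correspond to at most 0.166 CPM, which covers counting error only. A log2 fold change of the mutants over the controls is given with its standard error after ±, where an error is given.

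A protein with a signal peptide enters the ER through the Sec61 channel, loses the peptide to the signal peptidase and is folded by lectin chaperones and disulfide isomerases. COPII coats, assembled by the Sar1 GTPases, bud vesicles with finished cargo from the ER, and COPI coats, recruited by the Arf GTPases, return escaped ER proteins and cargo receptors from the Golgi. In the molar, ameloblasts of the epithelium and odontoblasts of the mesenchyme depend on this route to release enamel and dentin matrix.

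The deleted gene was measured first. Jag1 (ENSMUSG00000027276, GRCm38 chr2:137081456-137116644) stood at 95.2, 103, 104 and 99.9 CPM in the control embryos, against 34.0, 39.0, 46.0 and 57.1 CPM in the mutants. Every mutant lay below every control, as the labels have it, at a log2 fold change of -1.19 ± 0.14 (standard error; Benjamini-Hochberg adjusted p = 0.00517 in edgeR's quasi-likelihood test). Skeletal muscle markers, 8 genes with Acta1 as the most abundant on average, summed to 400 and 199 CPM in J6 and J7 and to 5.05 to 18.9 CPM elsewhere. The genes of 3 enamel matrix proteins, Enam, Amelx and Ambn, took up 9.57% of the K14J26 library, whose TMM factor was 0.843. K14J28 was the mutant with the smallest share on these genes, 0.356%, beside 0.0559% to 0.329% in the controls, although its Jag1 was as low as in the other mutants.

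Across the secretory genes, 8 of 54 (14.8%) rose in the mutant molars at an adjusted p under 0.05 in edgeR's quasi-likelihood test, where 9.52% of all tested genes rose. A single gene, Copg2, fell (1.85%), against 6.61% of all tested genes. The genes that rose were Sec62, Sec23b, Sec24c, Copa, Copb2, Copg1, Cope and Kdelr2. The changes were small: the log2 fold changes of the 54 genes ran from -0.27 to 0.80, with a median of 0.15 beside 0.01 over all tested genes, and 45 of the 54 were positive. The 4 mutant values all lay above the 4 control values for 7 of the 54 genes (13.0%), near the 12.6% of all tested genes, and all below for 3 (5.56%), against 11.6% of all tested genes. Whether these shares differ from those of all genes was not tested. The libraries are of whole molars, so more cells of a type and more RNA per cell cannot be told apart.

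**Figure D1:**
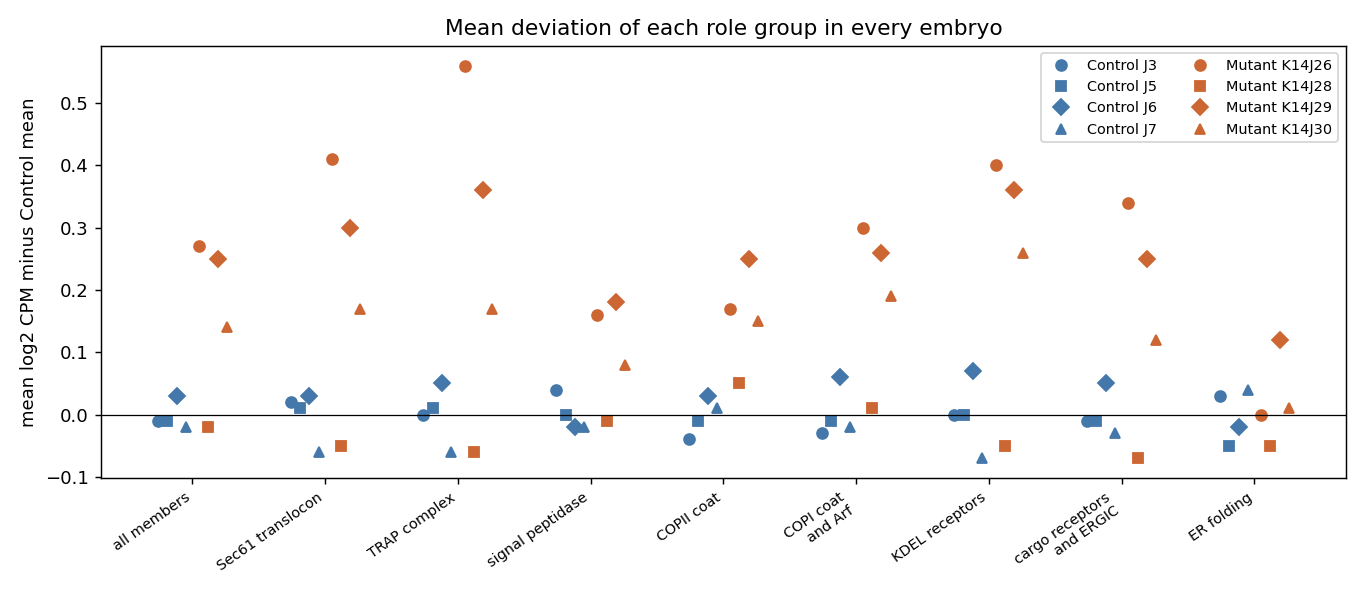
Mean log2 CPM of the genes of each role in each embryo, as the difference from the control mean of each gene (vertical axis, log2 units), for all 54 genes and for the 8 roles (horizontal axis). Blue symbols are control embryos and orange symbols mutant embryos; over all 54 genes K14J26 stands at 0.27, K14J29 at 0.25 and K14J30 at 0.14, while K14J28 stands at -0.02, among the controls.

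The mutants did not move together. Averaged over the 54 genes, the difference from the control mean in log2 CPM was -0.01, -0.01, 0.03 and -0.02 in the control embryos and 0.27, -0.02, 0.25 and 0.14 in the mutants. K14J28 thus lay within the range of the controls, and the other 3 mutants above it. The plot of role means shows the same order for the translocon, the TRAP complex, the COPI coat, the KDEL receptors and the cargo receptors, where K14J26 was highest, followed by K14J29 and K14J30. For the ER folding genes the means of K14J26, K14J28 and K14J30 (0.00, -0.05 and 0.01) lay among those of the controls (-0.05 to 0.04), and only that of K14J29 (0.12) lay above them.

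The number of genes called depended on single embryos. Without K14J28, 25 of the 54 genes rose, all 8 named above among them, and the median log2 fold change was 0.21. The others were Sec61a1, Ssr2, Ssr4, Spcs1, Spcs2, Sec13, Sec31a, Copz1, Copz2, Arcn1, Arf4, Kdelr3, Ergic3, Tmed3, Surf4, P4hb and Pdia3. The share of all tested genes that rose went from 9.52% to 14.6% (2479 genes). Without J3, J5, J6, J7 or K14J29, each left out by itself, edgeR's quasi-likelihood test called none of the 54 genes. In these fits 13, 12, 19, 11 and 12 of the 54 were higher at an unadjusted p under 0.05. For these and all later counts at the unadjusted p, the share of all tested genes is not given. Such counts therefore cannot be judged against it. At an adjusted p under 0.05, these fits called 373, 451, 854, 300 and 250 higher genes among all tested genes, in place of 1631. Without K14J26, 7 of the 8 remained called, and without K14J30 Sec62 and Sec23b did. Of all tested genes, 10.3% rose without K14J26 and 7.87% without K14J30. In the 8 fits the median of the 54 genes stayed between 0.11 and 0.21. Leaving out J6 and J7 together, the controls with muscle transcripts, also left no call in edgeR's quasi-likelihood test (10 at an unadjusted p under 0.05), with a median of 0.17, and left 3 higher and 4 lower genes among all 16881 tested.

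**Figure D2:**
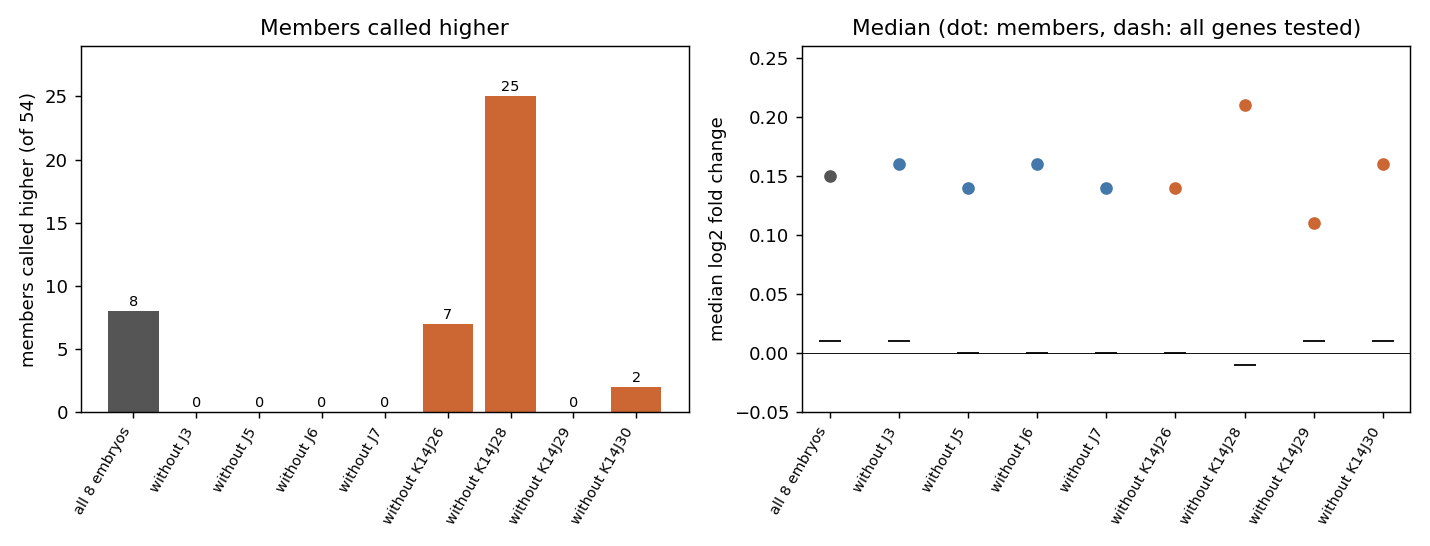
The number of the 54 genes called higher (left, bars starting at 0) and the median log2 fold change (right, dots for the 54 genes and dashes for all tested genes) with all 8 embryos and with each embryo left out. The count runs from 0 to 25, and the median from 0.11 to 0.21.

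The scaling of the libraries also bears on changes of this size. By library size only, without TMM, the median over all tested genes moved from 0.01 to -0.09 and that of the 54 genes from 0.15 to 0.05, so the distance between them changed little (0.15 and 0.14), while Sec62 and Sec23b were the members still called. Over all tested genes the split of calls was 1631 higher and 1133 lower with TMM, 1363 and 1448 with upper-quartile scaling, and 855 and 1060 by library size only. As a share of all counts, before any scaling, the 54 genes took 1.59%, 1.56%, 1.61% and 1.58% in the controls and 1.58%, 1.56%, 1.76% and 1.69% in the mutants.

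**Figure D3:**
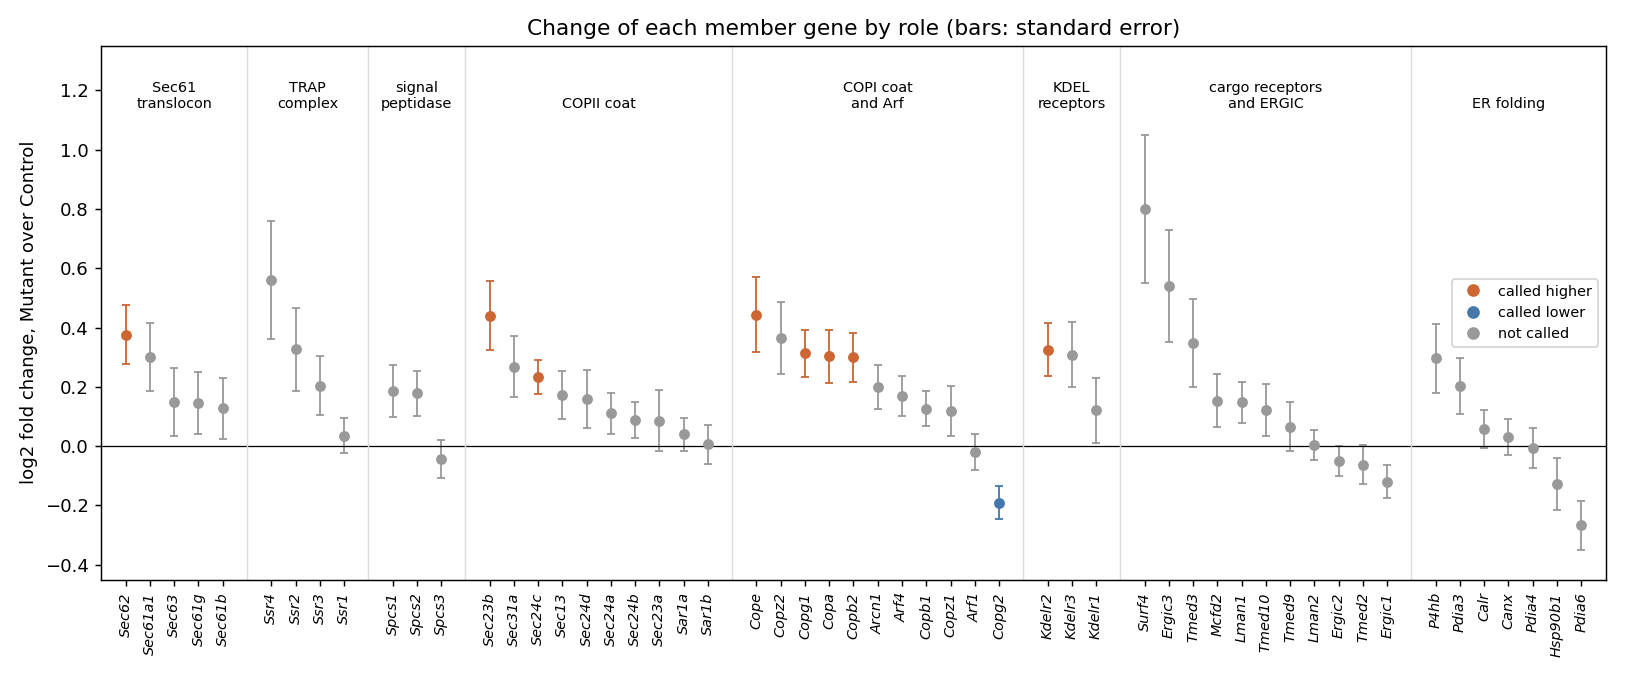
Log2 fold change (mutant over control, vertical axis) of each of the 54 genes with its standard error (bars), grouped by role. Orange points were called higher and the blue point lower at an adjusted p under 0.05 in edgeR's quasi-likelihood test with TMM scaling; the points run from -0.27 for Pdia6 to 0.80 for Surf4, and by library size only 36 of the 54 are above 0 in place of 45.

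Among the 5 translocon genes, Sec62 rose and the other 4 were not called. Sec62, which works beside the channel in the entry of short secretory proteins, had 140, 137, 132 and 127 CPM in the controls and 206, 151, 182 and 155 CPM in the mutants. All 4 mutants lay above all controls, K14J26 highest and K14J28 lowest. The log2 fold change of 0.38 ± 0.10 (adjusted p = 0.0351 in edgeR's quasi-likelihood test) is an increase of 29.8%. The call held in 3 of the 8 fits with an embryo left out, those without K14J26, K14J28 or K14J30, and the log2 fold change stayed between 0.28 and 0.43. Sec61a1, the pore-forming subunit, had 418, 434, 478 and 445 CPM and 641, 425, 581 and 538 CPM, so that 3 mutants lay above the controls and K14J28 among them (log2 fold change 0.30, adjusted p = 0.1 in edgeR's quasi-likelihood test). The small subunits Sec61b and Sec61g, at 0.13 and 0.15, and the J-domain partner Sec63, at 0.15, were not called either.

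No gene of the TRAP complex, which sits beside the channel and helps a subset of signal peptides to enter, passed the threshold in edgeR's quasi-likelihood test, while 2 of the 4 had an unadjusted p under 0.05. Ssr4 had 103, 102, 106 and 92.2 CPM in the controls and 216, 98.0, 149 and 133 CPM in the mutants. Here too K14J28 was at the level of the controls and the others above it (log2 fold change 0.56 ± 0.20, adjusted p = 0.0820 in edgeR's quasi-likelihood test). Ssr2 had 278, 280, 284 and 243 CPM and 408, 246, 375 and 332 CPM (log2 fold change 0.33, adjusted p = 0.132 in the same edgeR test). Ssr3 and Ssr1 had log2 fold changes of 0.20 and 0.04 and were not called. Without K14J28, Ssr2 and Ssr4 were called higher, which no other fit with an embryo left out did. DESeq2 called Ssr4 with all 8 embryos.

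The signal peptidase genes were not called. Spcs2 had 190, 182, 183 and 178 CPM in the controls and 223, 181, 224 and 200 CPM in the mutants, and Spcs1 had 109, 110, 107 and 97.2 CPM and 134, 102, 126 and 119 CPM. Both showed overlap through K14J28 alone, at 0.18 and 0.19 on the log2 scale (adjusted p = 0.130 and 0.162 in edgeR's quasi-likelihood test). Without that embryo both were called higher, and no other fit with an embryo left out called either. Spcs1 overlaps Glt8d1 on the opposite strand, whose counts come to 64.7% of its own, and the library kit does not mark the strand, so reads of the shared bases cannot be told apart. Spcs3 had a log2 fold change of -0.04.

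**Figure D4:**
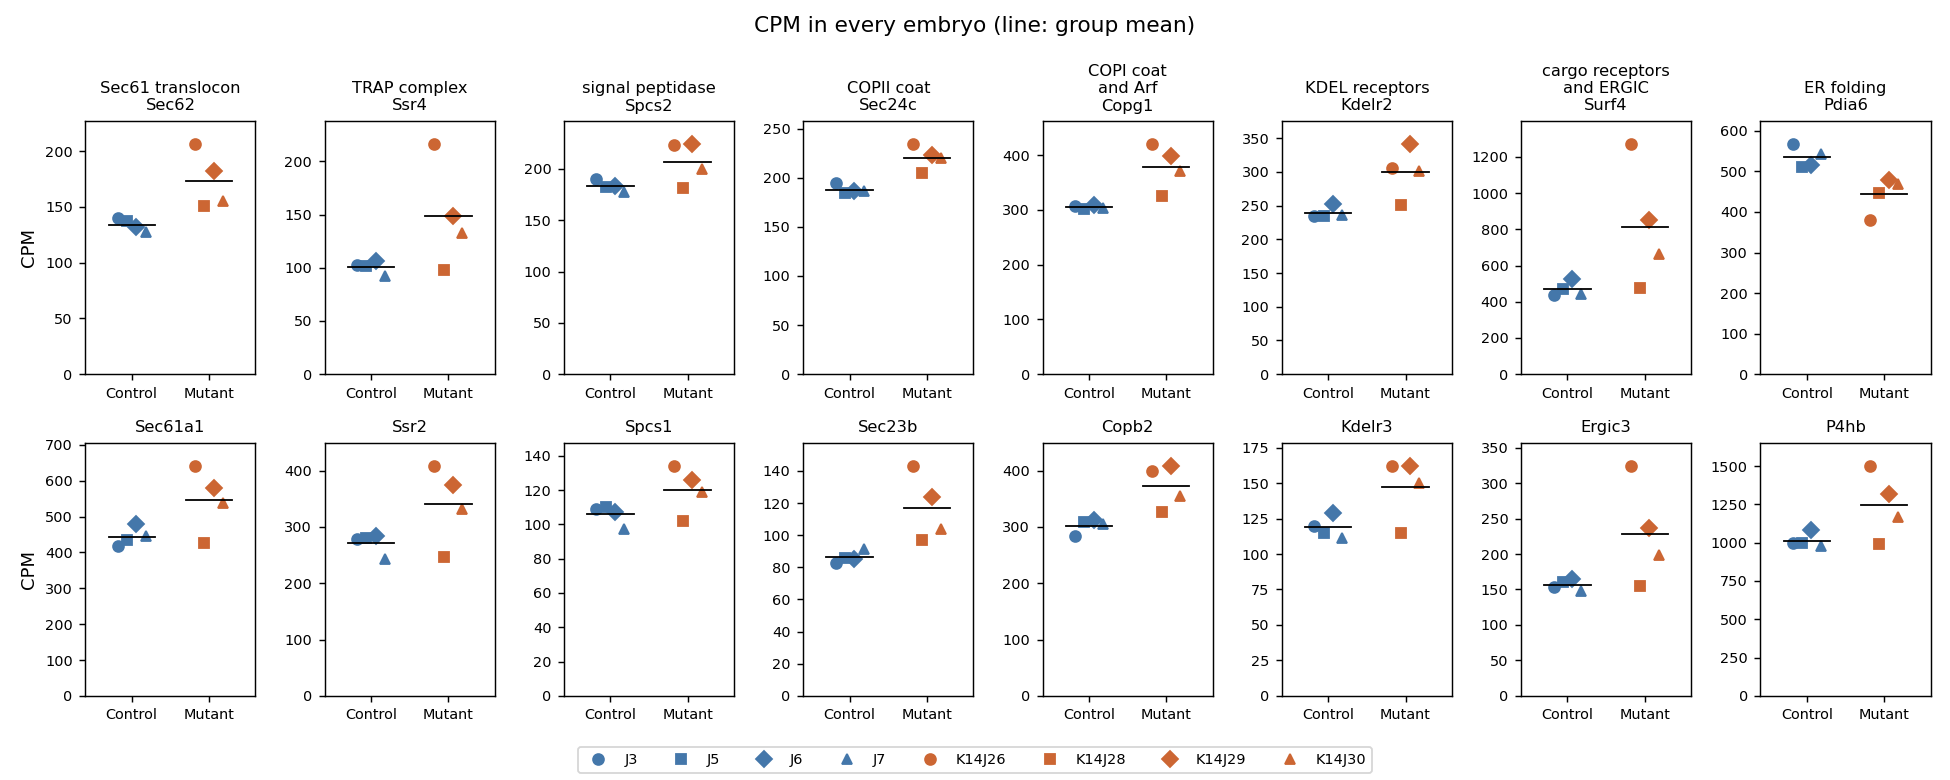
CPM in each embryo (points, vertical axes starting at 0) for the 2 genes of each role with the smallest unadjusted p, with the mean of each group (line). Blue points are controls and orange points mutants; in Sec62, Sec24c, Sec23b, Copg1 and Copb2 all mutants lie above the controls, and in Pdia6 all lie below.

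In the COPII coat, 2 of 10 genes rose, both of the inner layer that binds Sar1 and selects cargo. Sec24c, a cargo-binding subunit, had 195, 184, 186 and 186 CPM in the controls and 234, 205, 223 and 220 CPM in the mutants. Sec23b, the partner subunit that stimulates the GTPase, had 82.6, 85.5, 85.4 and 91.7 CPM and 143, 96.9, 124 and 104 CPM. Neither gene showed overlap between the groups, K14J28 being the mutant nearest to the controls in both. The log2 fold changes were 0.23 ± 0.06 for Sec24c (adjusted p = 0.0305 in edgeR's quasi-likelihood test) and 0.44 ± 0.12 for Sec23b (adjusted p = 0.0342). Sec23b was called in 3 of the 8 fits with an embryo left out (without K14J26, K14J28 or K14J30) and Sec24c in 2 (without K14J26 or K14J28), with log2 fold changes of 0.33 to 0.52 and 0.20 to 0.26.

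The other 8 COPII genes were not called. The outer cage genes Sec31a and Sec13 had log2 fold changes of 0.27 and 0.17, and the cargo-binding Sec24d, Sec24a and Sec24b had 0.16, 0.11 and 0.09. Sec23a, the paralogue of Sec23b, had 96.6, 107, 119 and 114 CPM in the controls and 94.6, 119, 128 and 122 CPM in the mutants (log2 fold change 0.09). K14J26, where Sec23b was highest, had the lowest Sec23a of the 8 embryos. The GTPases Sar1a and Sar1b, which start the coat, had log2 fold changes of 0.04 and 0.01.

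The COPI coat held most of the calls: of its 7 kinds of subunit together with the Arf GTPases, 4 of 11 genes rose and 1 fell. Copg1 (ENSMUSG00000030058, chromosome 6 from 87887814 to 87913595), a gamma subunit, had 307, 301, 309 and 303 CPM in the controls and 420, 325, 398 and 372 CPM in the mutants. The controls lay within a few CPM of each other (305 ± 3.59 CPM, SD, n = 4), and every mutant exceeded them. Copb2, the beta prime subunit that binds retrieval signals, had 283, 308, 313 and 305 CPM and 400, 326, 408 and 354 CPM, again without overlap. Log2 fold changes were 0.31 ± 0.08 for Copg1 (adjusted p = 0.0311 in edgeR's quasi-likelihood test) and 0.30 ± 0.08 for Copb2 (adjusted p = 0.0382). The alpha subunit Copa and the epsilon subunit Cope also rose, by 0.30 and 0.44 on the log2 scale (adjusted p = 0.0486 and 0.0431 in edgeR's quasi-likelihood test). For Cope the groups overlapped, as K14J28 lay among the controls. Copa overlaps Ncstn on the opposite strand, whose counts come to 38.0% of those of Copa. Copg1, Copb2 and Cope were called without K14J26 or without K14J28 and not with another embryo left out, and Copa without K14J28 only. Copa was also not called with upper-quartile or relative log expression scaling, by library size only or without a filter on low counts.

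Copg2 (ENSMUSG00000025607, chromosome 6 from 30747554 to 30896794), the second gamma subunit gene, went the other way. It had 121, 114, 119 and 112 CPM in the controls and 97.5, 106, 100 and 105 CPM in the mutants. The highest mutant lay below the lowest control, and K14J26, where Copg1 was highest, had the lowest value. The log2 fold change was -0.19 ± 0.06 (adjusted p = 0.0461 in edgeR's quasi-likelihood test), and the call held in 1 of the 8 fits with an embryo left out, that without K14J28, with log2 fold changes from -0.21 to -0.17. By library size only or without a filter on low counts it was not called. Copg2 overlaps the imprinted gene Mest on the opposite strand, whose counts come to 203% of those of Copg2, so a part of these reads may not be its own and cannot be told apart.

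Among the COPI genes not called, Arcn1, the delta subunit, had all mutants above all controls with a log2 fold change of 0.20 (adjusted p = 0.0944 in edgeR's quasi-likelihood test). The zeta subunit gene Copz2 had 53.8, 53.1, 61.4 and 51.7 CPM in the controls and 82.4, 54.5, 72.2 and 74.2 CPM in the mutants, and its paralogue Copz1 192, 177, 186 and 181 CPM and 211, 167, 211 and 211 CPM. K14J28 had the lowest Copz1 of the 8 embryos and a Copz2 level among the controls (log2 fold changes 0.12 and 0.36; DESeq2 called Copz2 higher). Copb1, the beta subunit, had a log2 fold change of 0.13. Of the GTPases, Arf4 had 322, 316, 340 and 322 CPM in the controls and 360, 331, 398 and 373 CPM in the mutants (log2 fold change 0.17), and Arf1 572, 562, 560 and 534 CPM and 570, 504, 557 and 566 CPM (log2 fold change -0.02).

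Ratios of paralogues within a library need no scaling between libraries, and 10 were tested with a two-sided exact permutation test over the 70 arrangements of 4 against 4 embryos, whose smallest p is 0.0286. The Copg2 counts may include reads of Mest, so the ratio of Copg1 to Copg2 counts has the same limit. It was 2.54, 2.65, 2.59 and 2.70 in the controls and 4.31, 3.07, 3.99 and 3.56 in the mutants. All mutants lay above all controls, also K14J28, with a difference of 0.50 on the log2 scale (exact permutation p = 0.0286, adjusted p = 0.143 over the 10 ratios); without K14J26 it was 0.43 and without K14J28 0.59. Arf4 to Arf1 was likewise without overlap, at 0.563, 0.562, 0.607 and 0.603 in the controls and 0.631, 0.656, 0.715 and 0.659 in the mutants (0.19 on the log2 scale, the same exact permutation p and adjusted p). Sec23a to Sec23b differed by -0.34 (exact permutation p = 0.0571) and by -0.15 without K14J26, where the ratio was 0.66 beside 1.03 to 1.39 in the other 7 embryos. Copz1 to Copz2 differed by -0.24 (exact permutation p = 0.0571). None of the 10 ratios had an adjusted p under 0.05, the smallest being 0.143. A few ratios at the smallest possible p of 0.0286 cannot pass after adjustment over 10, so this decides nothing about them. The other 6, of Sec24, Sar1 and KDEL receptor genes, overlapped between the groups.

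The KDEL receptors bind ER proteins that end in the KDEL signal and bring them back from the Golgi, and 1 of the 3 genes rose. Kdelr2 had 234, 235, 252 and 236 CPM in the controls and 306, 251, 341 and 301 CPM in the mutants. K14J28 lay just under the highest control, and the other mutants were above all controls. The log2 fold change was 0.33 ± 0.09 (adjusted p = 0.0382 in edgeR's quasi-likelihood test), with a range of 0.26 to 0.40 and a call in 2 of the 8 fits with an embryo left out, those without K14J26 or K14J28; with upper-quartile scaling or by library size only it was not called. Kdelr3 had 120, 115, 129 and 111 CPM and 162, 115, 162 and 150 CPM, with K14J28 again among the controls (log2 fold change 0.31, adjusted p = 0.0810 in the edgeR test). Its exons overlap those of Ddx17 on the opposite strand, whose counts come to 556% of its own, so the values of Kdelr3 are uncertain. Kdelr1 had a log2 fold change of 0.12 and was not called.

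The 11 cargo receptors and ERGIC genes had a median log2 fold change of 0.12, with the largest single value of the 54 genes, that of Surf4, and no call in edgeR's quasi-likelihood test; 3 had an unadjusted p under 0.05 and DESeq2 called 2. Surf4 (ENSMUSG00000014867, chromosome 2 from 26920040 to 26933928), a receptor that loads soluble secreted proteins into COPII vesicles, had 436, 472, 523 and 442 CPM in the controls and 1270, 475, 851 and 666 CPM in the mutants. K14J26 had more Surf4 than any other embryo and K14J28 lay within the controls. The group values were 468 ± 39.6 and 816 ± 339 CPM (SD, n = 4 each), and the log2 fold change of 0.80 had a standard error of 0.25 (adjusted p = 0.0570 in edgeR's quasi-likelihood test). Ergic3, a membrane protein cycling between the ER and the Golgi, showed the same order with 154, 161, 165 and 148 CPM and 324, 155, 236 and 199 CPM (log2 fold change 0.54 ± 0.19, adjusted p = 0.0777 in edgeR's quasi-likelihood test). DESeq2 and the fit without K14J28 called both higher, and Surf4 was also called without a filter on low counts. No other fit with an embryo left out called Surf4 or Ergic3. The study's criteria were read as an unadjusted p up to 0.05 and a log2 fold change of 0.5 or more in either direction. The text of the study gives neither the scale nor the direction. Under this reading Surf4, Ergic3 and Ssr4 were the 3 members that passed, and none of the 8 genes named above did. Of all tested genes, 8.33% were higher under this reading. On a linear scale all 54 genes have a fold change above 0.5, the lowest being 0.831 for Pdia6, so the p alone would decide. At an unadjusted p under 0.05 in edgeR's quasi-likelihood test 21 members were higher, and Copg2 and Pdia6 were lower. The 8 genes are among the 21, with fold changes of 1.18 to 1.36 and unadjusted p of 0.00291 to 0.00766 in that test. The share of all tested genes under this second reading is not given.

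The other cargo receptors were not called. Tmed3, of the p24 family that packs cargo into vesicles, had a log2 fold change of 0.35, and its relatives Tmed10, Tmed9 and Tmed2 had 0.12, 0.07 and -0.06. The lectin Lman1 and its partner Mcfd2, which together carry glycoproteins such as clotting factors, had 0.15 each, and the lectin Lman2 0.00. Ergic2 had -0.05. For Ergic1 all mutants lay below all controls with a log2 fold change of -0.12 (adjusted p = 0.151 in edgeR's quasi-likelihood test), and the counts of Dusp1 on the opposite strand come to 13.3% of its own.

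The ER folding genes, among them the most abundant of the 54, had the smallest median log2 fold change of the roles, 0.03, which was -0.01 with upper-quartile scaling and -0.07 by library size only. Per kilobase of merged exon, Calr had 381, P4hb 354, Pdia3 317 and Hsp90b1 274 CPM on average in the controls, against 3.61 for Sec24a, the lowest of the 54 genes on this scale. None of the 7 was called in edgeR's quasi-likelihood test, and P4hb was higher and Pdia6 lower at an unadjusted p under 0.05. Without K14J28, P4hb and Pdia3 were called higher, and no other fit with an embryo left out called either. Pdia6, a disulfide isomerase, had 567, 510, 517 and 544 CPM in the controls and 380, 448, 480 and 468 CPM in the mutants. All 4 mutants lay below the controls, K14J26 lowest (log2 fold change -0.27 ± 0.08, adjusted p = 0.0537 in the edgeR test; DESeq2 and upper-quartile scaling called it lower). P4hb, a disulfide isomerase that is also a subunit of the collagen prolyl 4-hydroxylases, had 1000, 995, 1080 and 981 CPM and 1500, 990, 1320 and 1170 CPM, with K14J28 among the controls (log2 fold change 0.30, adjusted p = 0.108 in the edgeR test). The isomerases Pdia3 and Pdia4 had log2 fold changes of 0.20 and -0.01, the lectin chaperones Calr and Canx 0.06 and 0.03, and Hsp90b1, the HSP90 of the ER, -0.13. The gene Gm15344 shares bases with Hsp90b1 and had 10.1% of its counts.

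The promoters were searched because many ER chaperone genes carry the ER stress response element (ERSE), which the factor ATF6 binds together with NF-Y. RefSeq windows on GRCm38.p6, from 250 bases before to 50 bases after the start, were at hand for 47 of the 54 genes. On either strand, the ERSE was taken as CCAAT, any 9 bases and CCACG. It was found in 4 of the 47 genes and in 39 of the 32851 windows of all genes (0.119%), and all 4 are folding genes: Pdia6, Calr, Canx and Hsp90b1. It was in no window of the other 7 roles, nor in those of the 7 genes that rose and had a window; Kdelr2, Sec61a1, Ssr2, Spcs3, Arcn1, Lman1 and Tmed2 had none and were not searched. The matches follow, 5′ to 3′ on the strand of the gene, with the element in capitals (reading CGTGG to ATTGG where it lies on the other strand) and 25 bases on each side.
Pdia6, chr12:17266466-17266534, plus strand, element at -98 to -80 from the start: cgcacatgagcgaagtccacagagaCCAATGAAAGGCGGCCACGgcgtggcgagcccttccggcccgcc
Calr, chr8:84847050-84847118, minus strand, element at -162 to -144: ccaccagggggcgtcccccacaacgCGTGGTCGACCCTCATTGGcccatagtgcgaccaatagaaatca
Canx, chr11:50325775-50325843, minus strand, element at -145 to -127: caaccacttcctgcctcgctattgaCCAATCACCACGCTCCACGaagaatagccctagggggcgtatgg
Hsp90b1, chr10:86705613-86705681, minus strand, element at -212 to -194: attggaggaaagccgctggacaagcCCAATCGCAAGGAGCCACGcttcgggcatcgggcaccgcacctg
Hsp90b1, chr10:86705508-86705576, minus strand, element at -107 to -89: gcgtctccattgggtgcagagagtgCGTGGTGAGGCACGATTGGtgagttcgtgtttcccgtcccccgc
The log2 fold changes of these 4 genes were -0.27, 0.06, 0.03 and -0.13, and edgeR's quasi-likelihood test with TMM scaling called none, while DESeq2 and upper-quartile scaling called Pdia6 lower.

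Of the other motifs, the CCAAT box by itself, which is also the first part of the ERSE, was in 22 of the 47 genes (46.8%), among them all 7 folding genes, and in 37.4% of all windows. TGACGTG was in 6 of the 47 genes (12.8%), Sec23a, Sec24d, Copb1, Copb2, Arf1 and Kdelr3, and in 2.01% of all windows. ERSE-II (ATTGG, any base and CCACG) was in none of the 47 and in 0.0365% of all windows. These matches describe letters in the window and say nothing of a factor at the site.

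Other genes of the pathway were counted in 11 lists with 174 tested genes. In edgeR's quasi-likelihood test 43 rose (24.7%) and 4 fell (2.3%), against 9.52% and 6.61% of all tested genes. A difference between these shares was not tested. With 1 embryo left out in turn, the number that rose ran from 7 to 79, and by library size only it was 27. Upstream of the channel, 1 of 8 tested genes of the signal recognition particle and its receptor rose: Srprb, the beta subunit of the receptor (94.4, 91.3, 95.7 and 94.7 CPM in the controls and 135, 101, 119 and 112 CPM in the mutants; log2 fold change 0.31). Srpr and Srp14 had log2 fold changes of 0.28 and 0.21 and were not called. None of 19 other translocon and membrane insertion genes was called in edgeR's quasi-likelihood test, although 2 were higher and 3 lower at an unadjusted p under 0.05, with Tram1, Emc8 and Wrb at log2 fold changes of 0.28, -0.21 and -0.27. In the oligosaccharyltransferase, which adds glycans to nascent chains, 1 of 12 genes rose, the catalytic subunit Stt3a (log2 fold change 0.33), with Dad1 at 0.37 and Ost4 at 0.26 not called. Without K14J28 the counts of genes that rose in these 3 lists were 5, 1 and 8, without K14J26 they were 1, 0 and 0, and without J3, J5, J6, J7, K14J29 or K14J30 they were 0 in edgeR's quasi-likelihood test. At an unadjusted p under 0.05, these last 6 fits had 2, 2, 2, 2, 1 and 5 higher genes in the first list, 2, 1, 2, 1, 1 and 3 in the second and 2, 2, 4, 1, 1 and 5 in the third. Their median log2 fold changes stayed at 0.15 to 0.23 in the first list and 0.18 to 0.23 in the third.

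Around the COPII coat, 7 of 21 assembly and tethering genes rose and none fell. Sec16b, which marks the ER exit sites, had 13.4, 14.5, 13.7 and 14.2 CPM in the controls and 20.1, 18.6, 21.4 and 20.1 CPM in the mutants. All 4 mutants, K14J28 among them, were well above the controls (log2 fold change 0.52 ± 0.08, adjusted p = 0.00779 in edgeR's quasi-likelihood test). Preb, the exchange factor of Sar1, and Uso1, a vesicle tether, had log2 fold changes of 0.39 and 0.42. Of 13 genes of SNAREs and a SNARE-binding protein of this step, 3 rose, the SNARE Bet1, Sec22a of the SNARE family and Scfd1, which binds the SNARE syntaxin 5, with 0.32, 0.40 and 0.23. Among regulators of COPI and other p24 genes, 4 of 13 rose and 1 fell. Arfgap1, which ends the GTP cycle of Arf1, Gbf1, which starts it, and Arfgap3 stood at 0.53, 0.60 and 0.50 on the log2 scale (adjusted p = 0.0140, 0.0211 and 0.0274 in edgeR's quasi-likelihood test). For these 3 genes all mutants exceeded all controls. The counts of higher genes in the COPII list were 1, 1, 2 and 1 without J3, J5, J6 and J7, and 7, 11, 1 and 6 without K14J26, K14J28, K14J29 and K14J30. For the SNARE list they were 0, 1, 1, 0, 4, 7, 0 and 2 in the same order. For the COPI regulators they were 1, 1, 3, 0, 4, 5, 0 and 3, and the lower genes numbered 0, 0, 0, 0, 1, 2, 0 and 2.

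The list of Golgi structure, golgins, GRASPs and the COG tethering complex, had 10 of 20 genes higher and none lower (50% against 9.52% of all tested genes), with a median log2 fold change of 0.30. Golgb1, the giant golgin that binds COPI vesicles, had 124, 117, 129 and 122 CPM in the controls and 348, 195, 275 and 215 CPM in the mutants. Golga4 had 79.7, 80.4, 85.7 and 82.3 CPM and 140, 118, 122 and 111 CPM, and Cog6 46.1, 46.5, 45.9 and 41.7 CPM and 81.4, 60.8, 83.3 and 71.9 CPM. In each of the 3 genes K14J28 also lay above the controls. Log2 fold changes were 1.07 for Golgb1, 0.58 for Golga4 and 0.72 for Cog6 (adjusted p = 0.00875, 0.00682 and 0.00760 in edgeR's quasi-likelihood test). The number of these genes called higher was 7, 7, 8 and 7 without J3, J5, J6 and J7, and 11, 15, 6 and 10 without K14J26, K14J28, K14J29 and K14J30, and 5 by library size only. Leaving out J6 and J7 together ended all 10 calls in edgeR's quasi-likelihood test, in a fit that kept 3 higher genes among all tested. In that fit 12 genes of the list were higher at an unadjusted p under 0.05.

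**Figure D5:**
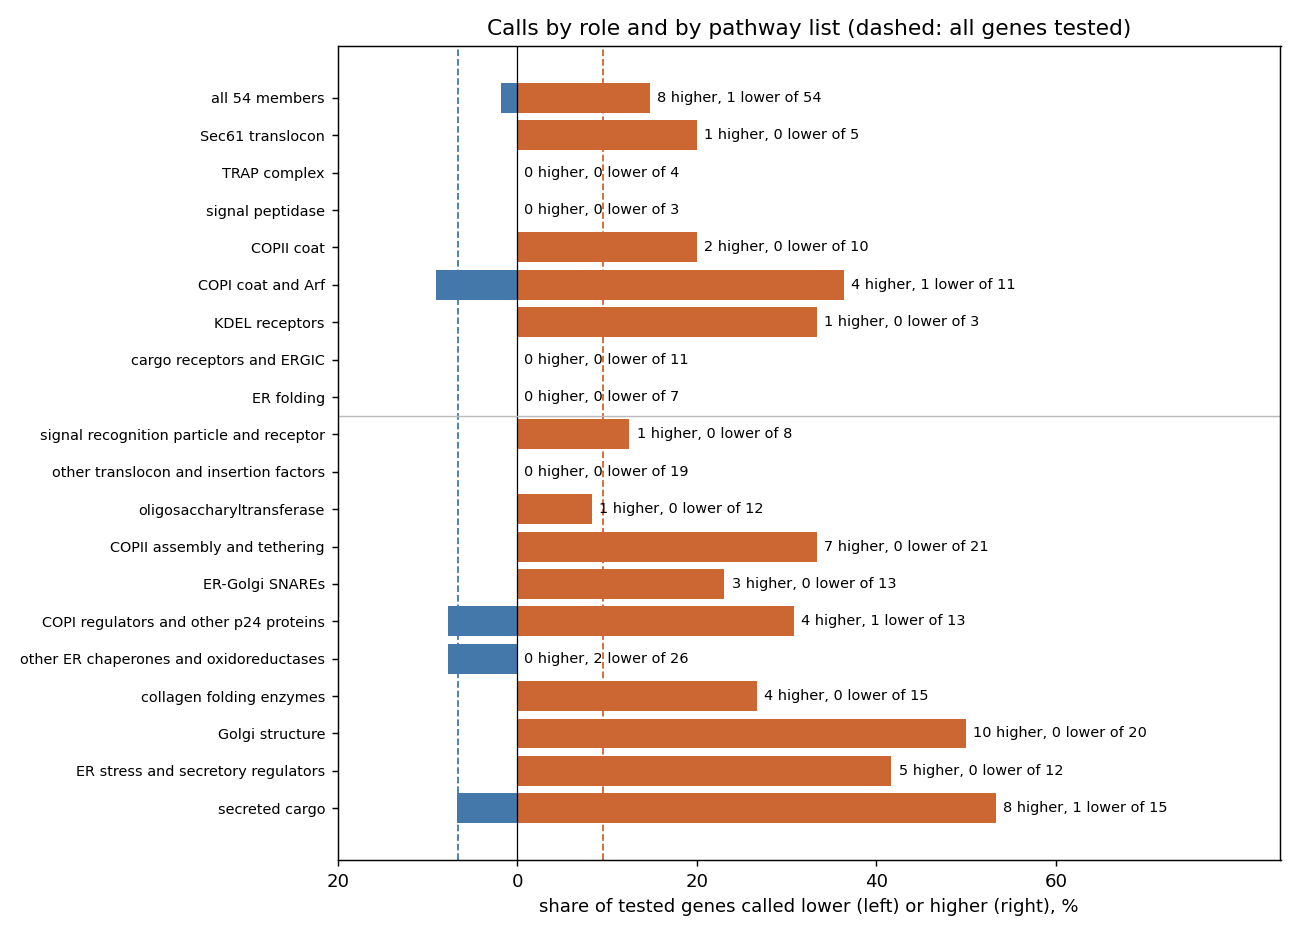
Share of tested genes called higher (orange, to the right) and lower (blue, to the left) in edgeR's quasi-likelihood test, in percent, for the 54 genes, their 8 roles and the 11 pathway lists. Dashed lines mark the shares of all tested genes, 9.52% higher and 6.61% lower; the Golgi structure list reaches 10 of 20 and the ER folding genes 0 of 7 (2 of 7 without K14J28).

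In the ER, none of 26 other chaperones and oxidoreductases rose in edgeR's quasi-likelihood test (3 were higher at an unadjusted p under 0.05, and 5 rose without K14J28) and 2 fell: Ero1lb, an oxidase that charges disulfide isomerases, with 15.1, 13.9, 15.2 and 17.7 CPM in the controls and 6.35, 11.7, 10.2 and 9.74 CPM in the mutants (log2 fold change -0.70), and the calcium-binding Rcn2 (log2 fold change -0.22). Txndc11 was at 0.29 and not called. The lower genes of this list numbered 0, 1, 1 and 0 without J3, J5, J6 and J7. Without K14J26, K14J28, K14J29 and K14J30 they numbered 2, 2, 0 and 1. Of 15 collagen folding enzymes 4 rose and none fell; a difference between the lists was not tested. Plod2, a lysyl hydroxylase of collagen, had 203, 301, 397 and 230 CPM and 1360, 500, 1090 and 599 CPM (log2 fold change 1.65 ± 0.34, adjusted p = 0.0175 in edgeR's quasi-likelihood test), and Fkbp14 and the prolyl hydroxylase subunit P4ha2 had log2 fold changes of 0.74 and 0.81. Among 12 regulators of ER stress and secretory capacity, 5 rose. The ER stress sensor Atf6 had 52.0, 59.0, 62.3 and 57.3 CPM in the controls and 103, 70.8, 102 and 78.0 CPM in the mutants (log2 fold change 0.62 ± 0.13, adjusted p = 0.0183 in edgeR's quasi-likelihood test). Creb3 and Bhlha15, a factor of secretory cells with at most 3.67 CPM, had log2 fold changes of 0.51 and 1.19. Without J3, J5, J6, J7, K14J26, K14J28, K14J29 and K14J30 in turn, the higher genes numbered 0, 0, 3, 0, 3, 6, 0 and 2 for the collagen enzymes and 1, 0, 3, 0, 5, 7, 0 and 4 for the regulators.

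Of 15 secreted cargo genes, 8 rose and 1 fell, and their summed level was 12500, 18500, 21500 and 15000 CPM in the controls and 158000, 21200, 58200 and 35700 CPM in the mutants. In these sums K14J26 was highest and K14J28 within the controls. With the 20 most abundant genes left out, 8 cargo genes remained, of which 1 rose and 1 fell, with a median log2 fold change of -0.04. Enam, Dspp and Col1a2, the genes with the smallest p in the list, differed by 5.61, 2.31 and 1.43 on the log2 scale (adjusted p = 0.0244, 0.0247 and 0.0237 in edgeR's quasi-likelihood test). Without J3, J5, J7 or K14J29 none of the 15 was called in edgeR's quasi-likelihood test. At an unadjusted p under 0.05, 8, 8, 9 and 8 were higher in these fits. Without J6 5 rose and 0 fell.

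Of 6 tested ameloblast genes 5 rose, and the list, led by Amelx, summed to 838, 2120, 3420 and 711 CPM in the controls and 115000, 3960, 26200 and 9980 CPM in the mutants. Of 3 odontoblast genes, led by Dspp, 2 rose, with sums of 557, 1430, 1800 and 601 CPM and 7160, 2170, 5420 and 3250 CPM. In both sums K14J26 was highest and K14J28 was the lowest mutant, above every control; the most abundant genes lead the sums, and single genes of the lists had other orders. Of the osteoblast genes 3 of 5 rose, and the dental epithelium list, led by Krt5, had 1 of 5 higher. In the dental mesenchyme list, led by Vim, 1 of 5 rose and 2 fell, and 1 of 6 macrophage and leukocyte genes rose. Over all tested genes 9.52% rose and 6.61% fell, and whether the marker lists differ from this was not tested. Amelx, Ambn, Enam and Dspp are also cargo genes. None of these was called in edgeR's quasi-likelihood test without J3, J5, J7 or K14J29, each left out by itself. For the other marker genes, calls with an embryo left out are not given. No gene of the endothelium, Schwann cell, erythroid, osteoclast, cartilage or plasma cell lists was called in edgeR's quasi-likelihood test, although 2 endothelial genes were lower and 1 osteoclast and 1 plasma cell gene higher at an unadjusted p under 0.05. The Schwann cell, erythroid, cartilage and plasma cell lists were led by Mbp, Hbb-bs, Col2a1 and Sdc1, and no marker was at 0 in all 8 embryos. K14J28 stood apart in the osteoclast list, with 1810 CPM beside 300 to 681 CPM in the other 7 embryos. It also had the highest macrophage and leukocyte sum, 185 CPM, and the highest erythroid sum, 1660 CPM. Whether the exact age or dissection of K14J28 differed is not in the labels. With an enamel score per embryo (log2 CPM averaged over Mmp20, Klk4, Enam, Amelx and Ambn) as a covariate, edgeR's quasi-likelihood test called none of the 54 genes, 1 was higher at an unadjusted p under 0.05, and the median log2 fold change was -0.02, while 1.09% of all tested genes were called higher. The score ran from 4.73 to 6.87 in the controls and from 6.94 to 11.78 in the mutants, so that it and the genotype cannot be told apart.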

How the data were processed

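Total RNA of pooled left and right lower first molars was sequenced from 4 control and 4 mutant embryos. The authors selected poly(A) RNA, prepared libraries with a kit that does not mark the strand, trimmed the reads and aligned them with STAR to GRCm38; the submitters' processing notes name the build GRCm38.p3 and featureCounts, while the methods name GenomicRanges as the counter. The deposited values are raw counts per Ensembl gene, without normalization, in a table per embryo. The annotation release and the handling of reads with several matches are not given in the sources used here.

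Symbols, merged exon lengths and overlaps were taken from GENCODE M21, which holds 42548 of the 43629 identifiers. A gene was tested when 2 or more embryos of a group of 4 held 10 or more of its counts, which left 17129 genes. After TMM scaling, edgeR 4.0.16 in R 4.3.3 ran its quasi-likelihood test on genotype alone, and p was adjusted by Benjamini-Hochberg across these genes; a call is an adjusted p under 0.05. Standard errors were derived from the test as the size of the log2 fold change over the root of F. The scripts were checked on simulated counts. Totals ran from 17327224 to 29792467 counts, with 4 embryos per group. Whether depth or the number of embryos limits the precision more was not tested. Counts of embryos of a group differed beyond sampling noise in every pair (chi-square per degree of freedom 6.88 to 289), so none was deposited as a copy of another. Embryos are separate animals; sex and litter are not in the labels used.

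The members and the lists were chosen with earlier results of these data known, so no p was adjusted over a list and no list was tested as a set. By rule, values in every embryo are given for the 2 genes of each role with the smallest unadjusted p, for both genes of the ratios described and for Jag1; up to 3 genes with the smallest p are named per pathway list, and marker genes as the most abundant of their list in every embryo (Acta1 by the mean of the 8 embryos). Other genes with values in every embryo, overlapping genes and the genes of the enamel matrix were named after their values were seen. Of 180 list entries, 2 (Srp54b and Camlg) had no match. Alternatives were 3 other scalings, DESeq2 1.42.0, other filters, the criteria of the study, leaving out the 20 most abundant genes or single embryos, and covariates for an enamel and a muscle score. Promoter windows are from RefSeq (GRCm38.p6); protein sequences are not analysed here. Figures were drawn with matplotlib.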

Additional observations from a re-analysis of the deposited data

Results flagged for a closer look

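In 6 of the 108 groups of 4 embryos (54 genes in 2 groups) a single embryo stood far from the other 3, its distance to the nearest of them taking up more than the expected part of the whole range of the group. Chance does this in about 1 in 20 groups. K14J28 stood low among the mutants for Copz1, at 167 CPM with the nearest at 211 (0.982 of the range), and for Sec61b, at 64.5 CPM with the nearest at 83.9 (0.839). K14J29 stood high among the mutants for Sec24a, at 45.2 CPM with the nearest at 40.7 (0.835). Among the controls, J7 stood low for Ssr2, at 243 CPM with the nearest at 278 (0.852), and J6 stood high for Kdelr2, at 252 CPM with the nearest at 236 (0.861), and for Ergic2, at 115 CPM with the nearest at 111 (0.874).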

How the results depend on the processing

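Over 19 alternatives, no called member changed its sign in 1026 values of single members; 897 kept their status, 102 lost a call and 27 gained one. Upper-quartile scaling gave 6 members higher, without Copa and Kdelr2, beside 7.96% of all tested genes. It gave 2 members lower (Copg2 and Pdia6) and a median of 0.11, and 7 genes lower over the pathway lists. By library size only, 2 members were higher and 0 lower with a median of 0.05, and 27 list genes were higher, beside 4.99% of all tested genes. DESeq2 called 12 members higher and 2 lower, and 7 list genes lower, with 13.2% of all its tested genes higher in place of 9.52%. Relative log expression scaling gave 7 members higher, without Copa, beside 9.28% of all tested genes. Without a filter 8 members were higher, with Surf4 in place of Copa, and 0 were lower, beside 5.5% of all 26748 genes tested that were higher. Read on the log2 scale, the criteria of the study gave 3 members higher and 0 lower. They gave 25 list genes higher and 1 lower, beside 1426 higher (8.33%) and 1002 lower of all tested genes. With the enamel score as a covariate 0 members were called in either direction, the median turned to -0.02, and 2 list genes were higher and 0 lower, beside 1.09% of all genes higher. With the muscle score, or without J6 and J7, edgeR's quasi-likelihood test called 0 members and 0 list genes in either direction; each of these 2 fits had 10 members higher at an unadjusted p under 0.05, and over all tested genes they called 0.263% and 0.0178% higher. Without J6 and J7, 19 members (35.2%) had groups without overlap in place of 10, where the share of all tested genes went from 24.2% to 37.8%; fewer embryos separate more often by chance. The cause of these shifts was not tested.

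With 1 embryo left out in turn, members called higher ran from 0 to 25, members called lower from 0 to 1, the median from 0.11 to 0.21, and members without overlap from 10 to 35 (64.8%, without K14J28, where 37.9% of all genes were without overlap). List genes called higher ran from 7 to 79 and lower from 0 to 6. The difference of the Copg1 to Copg2 ratio ran from 0.43 to 0.59, and that of Sec23a to Sec23b from -0.45 to -0.15. With the 250 bases before the start as the window, 4 genes held the ERSE, 4 TGACGTG and 22 the CCAAT box. The list alternatives were chosen after seeing the data. The controls are littermates of mutants, but the litter of each embryo is not in the labels used, so no analysis paired or blocked by litter was possible. No member had fewer than 274 counts in an embryo.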
